A study of Mus musculus with 20 samples.

Results

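AP-1 and the immediate early factors described here are 10 genes, all of them transcription factors: Fosl1, Fosl2, Fos, Fosb, Jun, Junb, Jund, Atf3, Egr1 and Batf3. They were chosen by symbol, from a set selected on their puberulic acid and control counts, and all 10 were found once each among the 55822 genes of the deposited table. The study sequenced poly(A) RNA of whole kidney from 8-week-old wild-type mice of the inbred strain C57BL/6J, all male. Of its 4 groups, the 2 used here are the control group, given phosphate-buffered saline, and the group given puberulic acid at 1 mg per day, with 5 samples each. Dosing was once a day for 6 days, and after a day without dosing the organs were taken on day 7. The route is oral in the series text and gavage or intraperitoneal injection in the sample protocols, so it is not known per mouse, and the labels do not tie a sample to a numbered animal. The groups given the normal and the toxic lot of the supplement Choleste-Help at 1000 mg per day are not analysed here, because the column names do not show the lot.

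AP-1 is a dimer of basic leucine zipper (bZIP) proteins that binds DNA through paired basic regions. Fos proteins cannot pair with themselves and need a Jun partner, whereas Jun proteins can also pair with each other. Fos, Fosb, Jun, Junb and Egr1 are immediate early genes, transcribed within minutes of a growth factor, stress or injury signal without new protein synthesis, and their messages are short-lived. Fosl1 and Fosl2 are induced later and last longer, and Fosl1 is itself a classical AP-1 target. In kidney, AP-1 and Egr1 are known from the early response of tubule cells to ischaemic and toxic injury.

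In the kidneys given puberulic acid all 10 factors were higher than in control kidneys, and no range of the 5 puberulic acid samples overlapped that of the 5 controls. Markers of several cell types moved between the same groups. Called lower were all 5 proximal tubule markers (summed 5358 to 8804 CPM in controls and 236 to 729 CPM with puberulic acid), all 3 of the collecting duct (296 to 436 and 153 to 206 CPM), 1 of 2 of the thick ascending limb (2637 to 4907 and 2914 to 5498 CPM) and 1 of 3 of endothelium (91.9 to 155 and 49.3 to 130.4 CPM). The thick ascending limb sum was mostly Umod, at 2208 to 4050 CPM in controls and 2765 to 4719 CPM with puberulic acid. The marker of that segment called lower was Slc12a1, at 429 to 954 and 140 to 779 CPM, with overlapping ranges. Called higher were 3 of 5 macrophage markers (66.4 to 160 and 126 to 402 CPM) and 2 of 3 fibroblast markers (45.8 to 72.7 and 204 to 656 CPM). The fibroblast sum with puberulic acid was mostly Col1a1, at 12.6 to 26.7 CPM in controls and 122 to 547 CPM with puberulic acid, while Pdgfra, at 13.4 to 20.4 and 12.3 to 30.6 CPM, overlapped and was not called. For neutrophils, 2 of 4 markers were tested, leaving out S100a8 and Ly6g, the latter at 0 in all samples, and 1 of the 2 was called higher (summed over all 4, 0.475 to 1.74 and 1.79 to 4.02 CPM), and for T cells 1 of 3 (1.23 to 2.64 and 1.06 to 4.60 CPM). Their part in the levels of the factors was not tested. Values are CPM, the count of a gene relative to its library's total, scaled by trimmed mean of M-values (TMM) factors. The log2 fold changes ran from 0.52 for Jund to 10.20 for Fosl1, with a median of 3.53, beside a median of 0.05 over the 16266 genes tested. All 10 passed an adjusted p of 0.05 in edgeR's quasi-likelihood test and were called higher. Over all genes tested, 34.2% were called higher and 31.1% lower, 65.3% in either direction, and the ranges were apart and higher for 26.1%. A call together with a fold of at least 4 was met by 7 of the 10 factors and by 9.22% of all genes tested. Because values of this same comparison chose the factors, their calls and folds are a description and test nothing. Scaling by library totals alone moved the median of all genes to 0.56 and the split of calls from 5564 higher and 5058 lower to 9179 higher (56.4%) and 2526 lower. All 10 factors stayed higher and called under that scaling and under every other alternative tried.

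**Figure D1:**
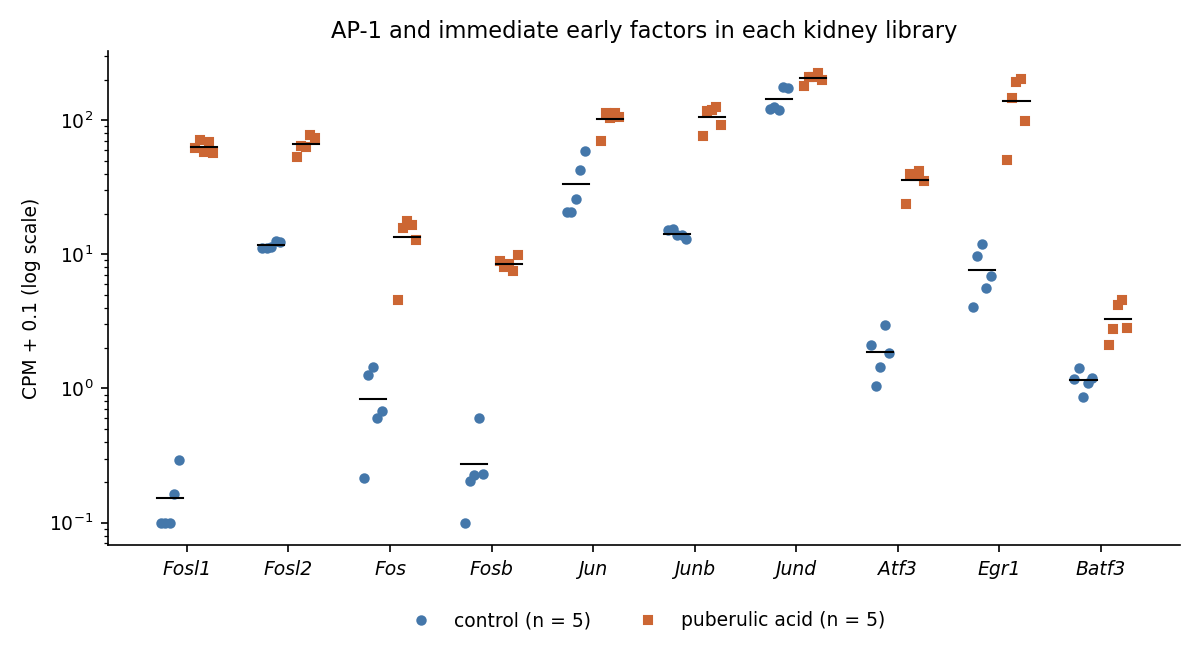
CPM plus 0.1 (log axis) of each factor in each library, with blue circles for the 5 controls, orange squares for the 5 puberulic acid samples in the order of their replicate numbers, and a black line at each group's mean. The groups are apart for all 10 genes, widest for Fosl1 and narrowest for Jund, where the lowest puberulic acid sample is at 180.3 CPM and the highest control at 175 CPM.

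Promoter windows from RefSeq (build GRCm38.p6), running from 250 bases before the transcription start to 50 after it, were matched for 8 of the 10 factors: Fosl2, Fos, Fosb, Jun, Junb, Jund, Atf3 and Batf3. The 5 windows that held TGACG or TGACATCA, short elements described next, are shown. Capitals mark matches on either strand to the motifs searched.
Fos (chr12:85473640-85473939, plus strand): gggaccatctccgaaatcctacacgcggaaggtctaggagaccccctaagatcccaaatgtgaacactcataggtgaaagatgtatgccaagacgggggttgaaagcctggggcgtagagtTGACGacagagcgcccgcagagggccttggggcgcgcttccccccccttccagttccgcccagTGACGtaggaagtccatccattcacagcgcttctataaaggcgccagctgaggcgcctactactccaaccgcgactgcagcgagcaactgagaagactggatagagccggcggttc
Fosb (chr7:19309996-19310295, minus strand): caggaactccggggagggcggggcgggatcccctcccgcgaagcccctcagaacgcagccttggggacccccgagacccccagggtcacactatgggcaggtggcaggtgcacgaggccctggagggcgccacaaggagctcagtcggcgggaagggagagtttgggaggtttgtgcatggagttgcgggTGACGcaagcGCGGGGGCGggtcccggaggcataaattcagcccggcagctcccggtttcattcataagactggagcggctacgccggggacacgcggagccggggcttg
Jun (chr4:95052173-95052472, minus strand): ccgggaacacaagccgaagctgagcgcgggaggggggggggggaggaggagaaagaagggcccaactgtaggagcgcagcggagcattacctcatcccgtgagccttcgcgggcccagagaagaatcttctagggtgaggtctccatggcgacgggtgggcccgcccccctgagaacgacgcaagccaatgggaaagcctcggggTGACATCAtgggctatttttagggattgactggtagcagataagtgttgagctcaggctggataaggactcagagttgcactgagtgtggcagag
Junb (chr8:84978699-84978998, minus strand): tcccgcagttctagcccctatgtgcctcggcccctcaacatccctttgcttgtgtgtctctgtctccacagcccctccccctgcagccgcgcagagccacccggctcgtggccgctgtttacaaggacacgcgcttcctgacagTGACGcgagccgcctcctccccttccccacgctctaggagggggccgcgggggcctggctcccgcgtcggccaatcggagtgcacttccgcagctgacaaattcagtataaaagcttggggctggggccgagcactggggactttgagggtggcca
Atf3 (chr1:191183284-191183583, minus strand): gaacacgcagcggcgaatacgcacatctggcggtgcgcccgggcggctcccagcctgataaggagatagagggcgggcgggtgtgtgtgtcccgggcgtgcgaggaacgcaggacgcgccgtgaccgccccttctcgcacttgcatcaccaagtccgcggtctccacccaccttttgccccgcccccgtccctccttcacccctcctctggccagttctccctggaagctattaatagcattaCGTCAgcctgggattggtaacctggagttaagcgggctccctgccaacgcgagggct
The letters TGACG, the shared part of the cyclic AMP response element (CRE), were found in Fos, Fosb, Junb and Atf3, that is in 4 of the 8 windows and in 20.8% of 32851 windows of all genes. In Fos they lie at bases -129 to -125 and -66 to -62 from the start, in Fosb at -60 to -56, in Junb at -106 to -102 and in Atf3, on the other strand, at -7 to -3. The Jun window held TGACATCA, the variant AP-1 element described in its promoter, at -45 to -38, and 3.62% of all windows held it. These 2 motifs were added after the windows had been read. Neither was found in Fosl2, Jund or Batf3. The other searches were for the AP-1 element TGANTCA (7.81% of all windows), the full CRE TGACGTCA, which overlaps TGACG (1.79%), the CArG box bound by serum response factor (1.63%) and the EGR motif GCGNGGGCG (5.55%). Of these the EGR motif was found in 2 of the 8 windows, Fosl2 and Fosb, and the others in none. Sequence further than 250 bases before the start was not searched, and Fosl1 and Egr1 had no window. A motif absent from a window can therefore lie elsewhere near the gene. A match is a string of letters and not a measured binding site.

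Fosl1, which encodes the Fos-related protein FRA-1, went from almost no reads to a mean CPM above those of Atf3, Fos, Fosb and Batf3. That mean was below those of Jund, Egr1, Junb, Jun and Fosl2. For Fosl1, control samples 1 to 5 had 0, 0, 0, 1 and 3 counts, or 0, 0, 0, 0.0623 and 0.195 CPM. The puberulic acid samples 1 to 5 were at 61.6, 71.2, 57.65, 68.4 and 56.9 CPM, a mean of 63.2 ± 6.41 (SD, n = 5). Every treated sample was thus high and within 1.25-fold of the others, and every control was at or below 3 counts. From 4 summed control counts and 8143 summed puberulic acid counts, the ratio of scaled sums was 1313, with an exact 95% interval of 513 to 4820 that covers counting error only. The fitted log2 fold change of 10.20 ± 0.33 (SE) exceeded that of 99.9% of the genes tested. It was 11.59 without control 5, which held 3 of the 4 control counts.

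Fosb showed the next largest fold at a much lower level. Its protein is a Fos-type activator, with a shortened splice form known as delta-FosB, which gene-level counts do not resolve. Control samples 1 to 5 were at 0, 0.105, 0.127, 0.499 and 0.130 CPM, with 14 counts in all. With puberulic acid they were at 8.76, 7.92, 8.34, 7.38 and 9.77 CPM. The treated samples lay close together, and control 4, with 8 counts, was the highest control. The log2 fold change was 5.60 ± 0.45 (SE), and the ratio of scaled sums was 50.9, with an exact 95% interval for counting error of 30.2 to 93.3. Without control 4 the log2 fold change was 6.47.

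Fos, the prototype of the family, varied most among the treated samples of the Fos group. Control samples 1 to 5 were at 0.114, 1.16, 1.34, 0.499 and 0.584 CPM, on 2 to 22 counts each. Puberulic acid samples 1 to 5 were at 4.45, 15.6, 17.5, 16.3 and 12.7 CPM. Sample 1 of the treated group stood at 28.7% of the mean of the other 4, though still 3.33-fold above the highest control. The log2 fold change was 4.16 ± 0.51 (SE).

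Fosl2, encoding FRA-2, was the Fos-type gene with the steadiest control level. Controls 1 to 5 were at 11.1, 11.1, 11.3, 12.5 and 12.3 CPM, a coefficient of variation of 6.15%. With puberulic acid the samples reached 52.7, 64.15, 62.7, 77.5 and 73.7 CPM, for a mean of 66.1 ± 9.77 (SD, n = 5) and a log2 fold change of 2.50 ± 0.11 (SE). The lowest treated sample was 4.20-fold above the highest control.

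Because the fold changes differed, the makeup of the Fos pool differed between groups. On CPM per kilobase of the longest coding transcript in GENCODE M21, Fosl2 made up 81.6% ± 9.69 of the summed Fos-type level in controls and 19.3% ± 2.13 with puberulic acid (SD, n = 5 in each). Fosl1 made up 1.20% ± 1.97 and 64.6% ± 5.04 (SD, n = 5 in each), and the largest part in all 5 treated samples. The share of Fos was 15.2% ± 9.89 in controls and 11.8% ± 4.32 with puberulic acid (SD, n = 5 in each), with overlapping ranges. The summed level went from 2.21 ± 0.26 to 52.5 ± 5.32 CPM per kilobase (SD, n = 5 in each). With the shortest coding transcripts, Fosl1 still made up 58.4% ± 4.42 with puberulic acid, while the share of Fosb there was 13.5% in place of 4.30%.

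**Figure D2:**
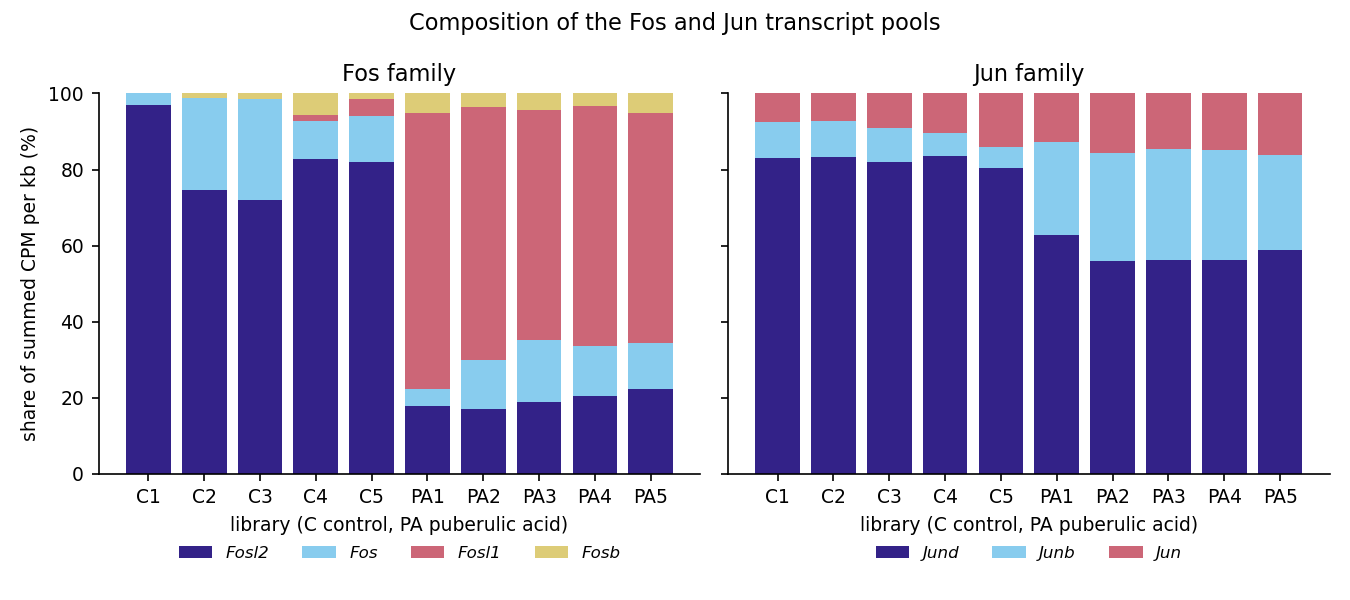
Share (%) of each gene in the summed CPM per kilobase of the Fos-type genes (left) and the Jun-type genes (right) in each library, C for control and PA for puberulic acid, numbered by replicate. Fosl2 is the largest Fos-type part in every control and Fosl1 in every treated sample, while Jund is the largest Jun-type part in all 10 libraries.

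Among the Jun genes Junb had the largest fold. JunB is a weaker activator than c-Jun on single AP-1 sites and can oppose it. Junb was at 15.1, 15.3, 13.9, 13.8 and 12.9 CPM in controls 1 to 5 and at 76.0, 116, 119, 124 and 91.9 CPM in puberulic acid samples 1 to 5. The controls were nearly level, and all treated samples were at least 4.97-fold above the highest of them. Its log2 fold change was 2.89 ± 0.14 (SE).

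Jun, encoding c-Jun, the target of the Jun N-terminal kinases, varied among the controls themselves. Control samples 1 to 5 were at 20.4, 20.5, 25.6, 42.1 and 58.3 CPM. The puberulic acid samples were at 70.3, 114, 104, 114 and 105 CPM, which left 1.21-fold between the highest control and the lowest treated sample. Controls 4 and 5 were high, and treated sample 1 was low. The log2 fold change of 1.61 ± 0.28 (SE) was 1.89 without control 5 and at most that in the other fits that left out 1 sample.

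Jund, the Jun gene with high basal expression in most tissues, changed least. Its controls were at 120.5, 124, 120.0, 175 and 175 CPM and its treated samples at 180.3, 211, 210.4, 224 and 200.4 CPM. As for Jun, controls 4 and 5 were the 2 highest, and they came within 1.03-fold of the lowest treated sample. The log2 fold change of 0.52 ± 0.13 (SE) exceeded that of 69.1% of the genes tested, and total-count scaling gave 1.03. Jund still made up 58.0% ± 2.95 of the summed Jun-type level per kilobase with puberulic acid, against 82.5% ± 1.24 in controls, and Junb went from 7.86% ± 1.95 to 27.2% ± 2.30 (SD, n = 5 in each). The summed Jun-type level was 104 ± 22.0 CPM per kilobase in controls and 213 ± 26.0 with puberulic acid (SD, n = 5 in each).

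Atf3, a stress-induced bZIP factor that pairs with Jun proteins and often represses, was low in controls and high in every treated sample. Controls 1 to 5 were at 2.00, 0.949, 1.34, 2.87 and 1.75 CPM. Puberulic acid samples 1 to 5 were at 23.6, 39.6, 38.5, 42.0 and 35.1 CPM, with a log2 fold change of 4.33 ± 0.27 (SE). The lowest of them was 8.25-fold above the highest control.

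Egr1 is a zinc finger factor and not a bZIP protein, induced through serum response factor and Elk proteins. It was at 3.94, 9.65, 11.8, 5.55 and 6.75 CPM in controls 1 to 5 and at 50.6, 146, 192, 203 and 98.4 CPM with puberulic acid. The treated values spread 4.02-fold from lowest to highest, the widest spread of the 10 factors, with sample 1 at 31.6% of the mean of the other 4. The log2 fold change was 4.19 ± 0.42 (SE).

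Batf3 pairs with Jun proteins and is known for its role in the development of cross-presenting dendritic cells. Control samples 1 to 5 were at 1.08, 1.32, 0.764, 0.997 and 1.104 CPM, and puberulic acid samples at 2.00, 2.68, 4.07, 4.48 and 2.73 CPM, on 54 to 110 counts. Samples 3 and 4 of the treated group were the highest, and the log2 fold change was 1.59 ± 0.27 (SE). The summed level of 5 dendritic cell markers (Xcr1, Clec9a, Flt3, Irf8 and Zbtb46) was 21.0 to 68.5 CPM in controls and 37.1 to 61.6 CPM with puberulic acid, and 2 of the 5 were called higher. The 68.5 CPM is control 1 alone, and the other 4 controls, at 21.0 to 23.8 CPM, lay below every treated sample. The sum was mostly Irf8, at 14.4 to 55.2 CPM in controls and 22.8 to 42.9 CPM with puberulic acid. The 2 groups overlapped for each marker except Flt3, and for Xcr1, Clec9a and Irf8 only through control 1. None of the 5 was at 0 in both groups. The part of such cells in the Batf3 level was not tested, and in bulk tissue more cells of a type and more RNA per cell cannot be told apart.

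**Figure D3:**
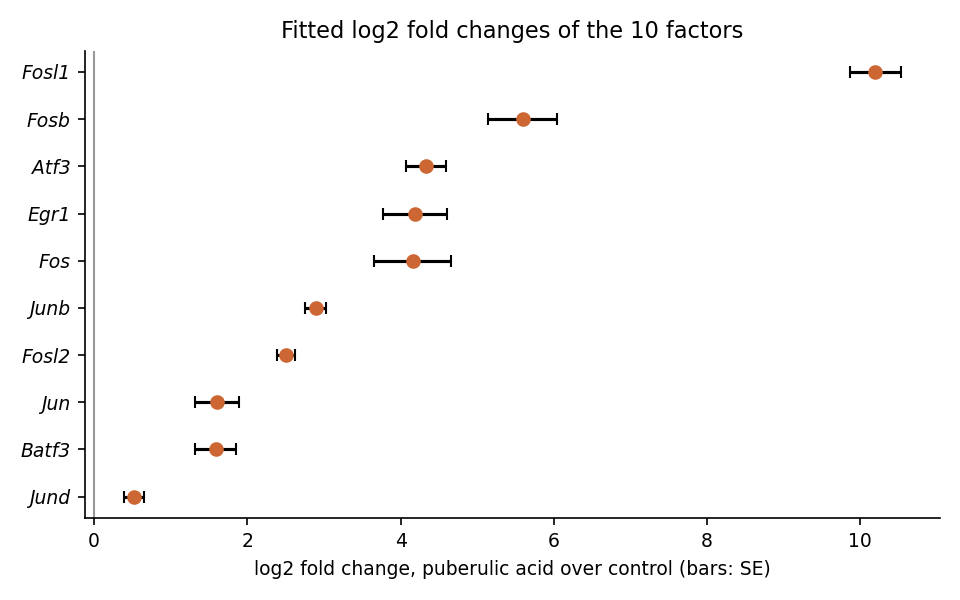
Fitted log2 fold change of each factor, puberulic acid over control, with bars of 1 SE from edgeR's fit on 5 and 5 samples. Fosl1 stands at 10.20 and Jund at 0.52, and Fosb, Atf3, Egr1 and Fos lie between 4.16 and 5.60.

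In order of level per kilobase of the longest coding transcript, the treated kidneys had Jund at 123 CPM per kilobase, Junb at 58.3, Fosl1 at 33.9, Jun at 31.8, Egr1 at 30.8, Atf3 at 18.0, Fosl2 at 10.1, Fos at 6.32, Batf3 at 3.99 and Fosb at 2.23. Ranges of neighbours did not overlap between Jund and Junb, Junb and Fosl1, or Atf3 and Fosl2, and overlapped for the other neighbours. Controls had the order Jund at 85.7, Jun at 10.5, Junb at 7.84, Fosl2 at 1.78, Egr1 at 1.68, Batf3 at 1.32, Atf3 at 0.897, Fos at 0.350, Fosb at 0.0455 and Fosl1 at 0.0276 CPM per kilobase, with gaps after Jund and after Junb only. Fosl1 was thus last in controls and just below Junb in treated kidneys. With the shortest coding transcripts Egr1 lay between Junb and Fosl1, and Fosb above Fos, in the treated group.

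Treated sample 1 was the lowest of its group for 8 of the 10 factors. For Fosl1 and Fosb it was not: it stood at 96.9% and 105% of the mean of the other 4 samples. In between lay Batf3 at 57.4%, Atf3 at 61.0%, Jun at 64.4%, Junb at 67.4%, Fosl2 at 75.8% and Jund at 85.3%. Over all 5564 genes called higher, sample 1 was the lowest of the 5 for 53.6%. In the same sample the summed level of 5 proximal tubule markers was 729 CPM, against 236 to 326 CPM in the other treated samples and 5358 to 8804 CPM in controls. The sum of 5 macrophage markers was 126 CPM there, against 238 to 402 CPM in the other treated samples and 66.4 to 160 CPM in controls. Fibroblast markers were also lowest there, at 204 CPM against 270 to 656 CPM in the other treated samples. Thick ascending limb markers, at 5498 against 2914 to 3691 CPM, and collecting duct markers, at 206 against 153 to 180 CPM, were highest there. The remaining marker sums of sample 1 lay within the range of the other treated samples. Whether these shifts bear on the levels of the factors was not tested. Without sample 1, the log2 fold changes of Fos and Egr1 were 4.36 and 4.38.

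**Figure D4:**
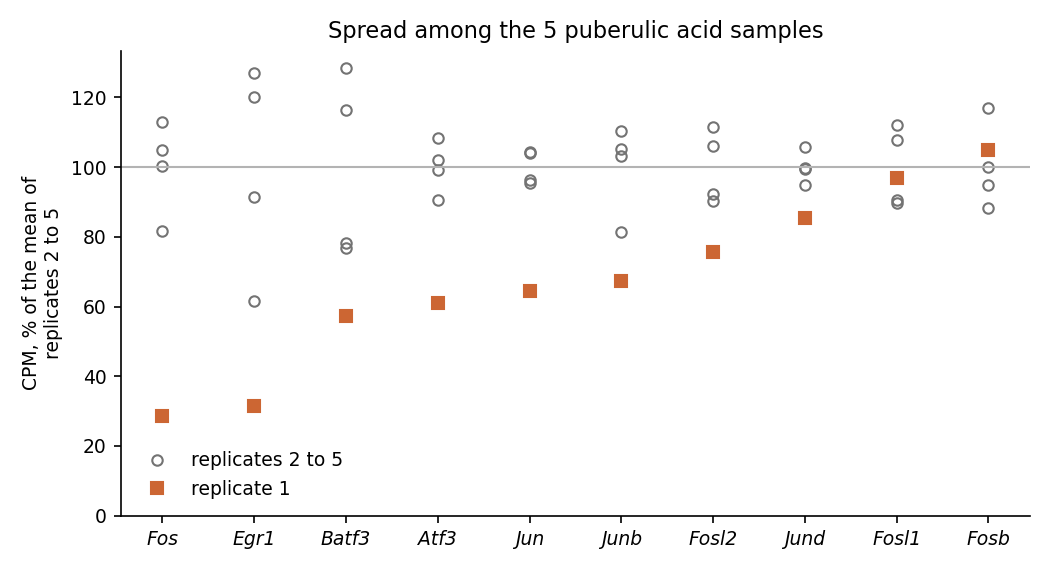
CPM of each factor in the 5 puberulic acid samples as a percentage of the mean of replicates 2 to 5, with replicate 1 as orange squares and the others as open circles. Replicate 1 is at 28.7% for Fos and 31.6% for Egr1, and at 96.9% for Fosl1 and 105% for Fosb.

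The wider pathway was read from 5 lists written from textbook knowledge, whose genes were tested with all others in the same fit. Earlier results of these data were known when the lists were chosen, so none of the 5 is independent evidence. Of 30 tested among 31 other immediate early genes, 26 rose, none fell and 4 were not called, and their median log2 fold change was 2.36. The share called higher, 86.7%, stands beside 34.2% over all genes tested. Egr2, a close relative of Egr1, rose to 14.6 ± 5.76 CPM from 0.208 ± 0.115 CPM in controls (SD, n = 5 per group), a log2 fold change of 6.12 ± 0.41 (SE, edgeR adjusted p = 1.79e-07). Socs3, a feedback inhibitor of cytokine signalling, rose from 1.89 ± 0.114 to 49.99 ± 13.98 CPM (adjusted p = 1.67e-08), and its controls lay between 1.74 and 2.01 CPM. Gadd45b, a stress sensor that activates p38 and JNK pathways, rose from 3.87 ± 0.551 to 47.4 ± 9.12 CPM (adjusted p = 1.32e-08). The 4 genes not called were Ier3 (log2 fold change 0.49), Klf2 (-0.31), Sik1 (0.14) and Per1 (0.08), with edgeR adjusted p-values of 0.0627, 0.387, 0.206 and 0.774. Macrophage markers, with 3 of 5 called higher, and fibroblast markers, with 2 of 3, moved in the same direction, and their part in these calls was not tested.

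Among other bZIP proteins that can pair with AP-1 members, 18 of 21 were tested, of which 10 rose, 1 fell and 7 were not called, with a median log2 fold change of 0.83. The share called in either direction was 61.1%, near the 65.3% over all genes tested, with 55.6% higher and 5.56% lower beside 34.2% and 31.1%. Maff, a small Maf protein without an activation domain, rose to 66.0 ± 11.9 CPM from 2.90 ± 0.936 CPM in controls (SD, n = 5 per group, edgeR adjusted p = 1.77e-08). Creb5 rose from 0.584 ± 0.285 to 13.02 ± 3.90 CPM (adjusted p = 5.19e-07). Batf, a lymphoid and myeloid relative of Batf3, rose from 0.511 ± 0.534 to 2.14 ± 0.823 CPM (adjusted p = 0.00667), with overlapping ranges, and its log2 fold change of 2.06 was 2.89 without control 4. Maf, a large Maf factor, was the gene that fell, from 186 ± 32.1 to 61.8 ± 18.7 CPM, by 1.59 on the log2 scale (adjusted p = 1.63e-05). Among treated samples Maf was highest in sample 1, at 93.8 CPM against 48.5 to 62.6 CPM, which also had the highest proximal tubule sum, 729 CPM against 236 to 326 CPM. The part of the marker shifts in the calls of this list was not tested. Jdp2, a Jun-binding repressor, had a log2 value of 0.05 (edgeR adjusted p = 0.84). Atf2, the usual Jun partner on CRE sites, had one of 0.14 (edgeR adjusted p = 0.179). Both were picked out after their values were seen.

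For kinases and serum response factors that act upstream, 29 genes were tested, of which 14 rose, 3 fell and 12 were not called, with a median log2 fold change of 0.24. The share called in either direction, 58.6%, was below the 65.3% over all genes tested, with 48.3% higher and 10.3% lower beside 34.2% and 31.1%. Total-count scaling called 24 of the 29 higher, beside 56.4% of all genes under that scaling. Mapk11, which encodes p38 beta, rose by a log2 fold change of 2.45 ± 0.23, Map3k1, a kinase above JNK, by 1.75 ± 0.12 and Elk3, an Ets-type partner of serum response factor, by 1.32 ± 0.11 (SE, edgeR adjusted p of 2.4e-06, 2.74e-07 and 6.68e-07). The genes that fell were Map2k2 (-1.17), Mapk14, which encodes p38 alpha (-0.997), and Map2k6, a kinase of p38 (-0.63), with edgeR adjusted p-values of 1.43e-07, 1.27e-06 and 0.00664. The fall of Map2k6 was not called under total-count scaling, with a log2 fold change of -0.12. These are transcript levels and say nothing of kinase activity, and the part of the marker shifts in them, or in the phosphatase calls that follow, was not tested.

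Of 10 phosphatases that switch off MAP kinases, 7 rose, 1 fell and 2 were not called, with a median log2 fold change of 1.5. The share called in either direction was 80.0% and that called higher 70.0%, beside 65.3% and 34.2% over all genes tested. Dusp5, a nuclear phosphatase of ERK, rose to 27.3 ± 4.78 CPM from 2.40 ± 0.704 CPM in controls (SD, n = 5 per group, edgeR adjusted p = 8.66e-08). Dusp8 and Dusp10, which act on JNK and p38, rose by log2 fold changes of 2.64 and 2.44 (adjusted p = 3.93e-06 and 6.74e-06). Dusp9 fell by 1.03 on the log2 scale (adjusted p = 0.00229), and under total-count scaling that was -0.52 and not called. Dusp1, itself a classical immediate early gene, averaged 36.9 ± 7.34 CPM in control samples against 42.9 ± 12.95 CPM in treated ones (SD, n = 5 per group) and was not called (adjusted p = 0.387), nor was Dusp7 (adjusted p = 0.732).

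Among 20 textbook AP-1 target genes, all tested, 18 rose, none fell and 2 were not called, that is 90% higher beside 34.2% over all genes tested. The macrophage, fibroblast and proximal tubule markers given above moved between the same samples, and their part in these calls was not tested. The median log2 fold change of the 20 target genes was 5.48, and 4.73 with the 3 genes that had no control reads set at their bound. Injury genes of this list, such as Spp1, were known to be high in these samples before the list was written, so it is no independent evidence. Sprr1b, a cornified envelope gene with AP-1 sites in its promoter, Mmp10, a matrix metalloproteinase, and Il6, a cytokine gene, had 0 counts in all 5 controls. They reached 18.5 ± 3.44, 5.26 ± 0.735 and 2.56 ± 1.53 CPM with puberulic acid (SD, n = 5), at least 102-fold, 29.2-fold and 14.2-fold higher than a floor of 3 counts per control library, which averages 0.180 CPM. The edgeR adjusted p-values for them were 1.47e-07, 5.69e-07 and 9.11e-05. These 3 were named by fitted log2 fold change, which for a gene at 0 in controls rests on the prior count, and their bounds are not ranked against the folds of other genes. Picked out after their values were seen, Timp1, an inhibitor of metalloproteinases, rose to 119.8 ± 50.9 CPM from 0.419 ± 0.212 CPM, a 286-fold ratio of means, and Ccl2, a monocyte chemokine, rose to 31.4 ± 14.5 CPM from 0.308 ± 0.165 CPM, a 102-fold ratio (SD, n = 5 per group, edgeR adjusted p = 5.48e-08 and 1.08e-07). The 2 not called were Plau, the urokinase gene, at 427 ± 81.1 and 472 ± 36.3 CPM, and Ccnd1, at 190.1 ± 13.025 and 216 ± 15.7 CPM (SD, n = 5 in each, edgeR adjusted p = 0.345 and 0.0644). Plaur, the receptor of urokinase, was picked out beside Plau after its values were seen and rose from 4.15 ± 1.13 to 99.5 ± 12.5 CPM (adjusted p = 7.44e-09).

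**Figure D5:**
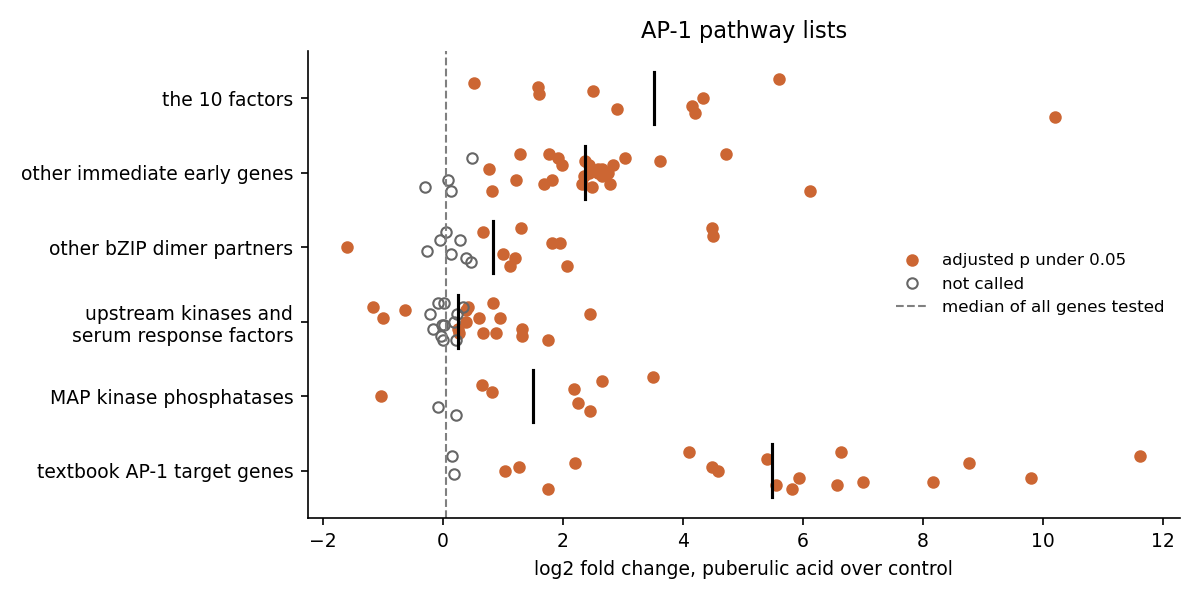
Log2 fold change, puberulic acid over control, of each tested gene in the 10 factors and the 5 pathway lists, filled where the adjusted p was under 0.05 and open where not, with a black bar at each list's median and a dashed line at the median of all genes tested (0.05). The medians are 3.53 for the factors, 2.36 for other immediate early genes, 0.83 for bZIP partners, 0.24 for upstream genes, 1.5 for phosphatases and 5.48 for target genes.

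The genes whose pattern over the 10 samples was most like each factor were found by the root mean square difference of log2(CPM + 1), each gene taken relative to its control mean, among 13502 candidates. For Fosl1 they were Dntt, a DNA polymerase of lymphocyte precursors, at a difference of 0.150, Cdkn1a, the cell cycle inhibitor p21, at 0.218, and Tnfrsf23 at 0.308. Nearest to Junb were Plk2 at 0.127, Krt76 at 0.127 and Cldn4 at 0.129, and nearest to Fosl2 were Serpinb6b at 0.111, Pbp2 at 0.116 and Tubb5 at 0.133. Jun was closest to Plk3 at 0.182, Nfil3 at 0.249 and Sema6b at 0.283, and Jund to Flvcr1 at 0.0919, Triobp at 0.103 and Sh3gl1 at 0.110. Genes near Fos were Plk1 at 0.264, Sh3pxd2b at 0.304 and Cdc20 at 0.317, and those near Fosb were Gas7 at 0.195, Hpgds at 0.210 and Sorcs2 at 0.211. Atf3 had Sfn at 0.224, Cryab at 0.234 and Anxa3 at 0.242, Batf3 had Klrd1 at 0.113, Cmtm7 at 0.122 and Defb36 at 0.138, and Egr1 had Ccl9 at 0.351, Cdh17 at 0.417 and Lce1g at 0.432. Egr1 had the most distant neighbours of the 10, and Jund the nearest. Since all of these profiles share the 2 groups of samples, likeness rests mostly on the size of the group difference in log2(CPM + 1). The added 1 shrinks that difference for genes near 0 CPM, so a like gene need not share a factor's fold. From control to treated, the mean of Fosl2 went from 11.7 to 66.1 CPM. Among its like genes, Serpinb6b went from 8.68 to 51.2, Tubb5 from 58.5 to 336 and Pbp2 from 0.0105 to 4.05 CPM. For Fosl1 the means were 0.0514 and 63.2 CPM, and for Cdkn1a 4.44 and 330 CPM.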

How the data were processed

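Per the labels' protocols, poly(A) RNA of mouse kidney was made into strand-specific libraries. The authors deposited 1 table of genes by libraries, whose values are estimated counts that need not be whole, with no normalization stated. The submitters' processing notes list fastp 0.22.0, FastQC 0.12.1, MultiQC 1.28, Salmon 1.10.3, DESeq2 and the build GRCm39, with no role or order given. Column names matched 10 samples, and the other 10 sample columns, whose names show no lot, were not used. Symbols were found for 51344 of 55822 gene identifiers.

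Estimated counts were rounded and filtered with filterByExpr. The 5 control and 5 puberulic acid samples were fitted by edgeR 4.0.16 (quasi-likelihood test, TMM factors, limma 3.58.1, R 4.3.3), with Benjamini-Hochberg adjustment over 16266 genes and calls at an adjusted p under 0.05. Standard errors (SE) were derived from the F statistic of each gene's test and its fitted change. Control libraries totalled 18409877 to 22725274 estimated counts and treated ones 19897287 to 24705587, so 3 counts are 0.158 to 0.195 and 0.0964 to 0.128 CPM. P-values weigh the difference between the 2 groups against the spread among the samples within them. The fit was tested on simulated counts in which few genes changed, in both directions. That test does not cover the scaling of data in which 65.3% of genes are called.

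The factors and lists were chosen with earlier results of these data known. Named from each list are up to 3 called genes per direction with the largest fitted log2 fold change among those with a mean of at least 1 CPM in 1 group, and 3 like genes per factor under the same minimum, leaving out the factors and unnamed gene models. Genes picked after their values were seen are marked as such. Alternatives were DESeq2 1.42.0, other scalings and filters, a robust fit, a replicate block and leaving out each sample. The replicate number of a sample does not mark a shared animal. Identical or overlapping genes can share reads. Tables and figures used pandas 2.3.3, numpy 2.4.6, scipy 1.17.1 and matplotlib 3.10.9.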

Additional observations from a re-analysis of the deposited data

Results flagged for a closer look

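Within each group of 5 samples, values of the factors, of the named list genes, of the summed marker lists and of the library totals were searched by Dixon's criterion for 1 sample lying far outside the other 4. It was met in 6 of the 80 sets searched, and chance gives about 1 in 20, or 4, if the values were independent. Jun was lowest in puberulic acid replicate 1, at 70.3 CPM against 104 to 114 CPM in the others. In the same sample the summed proximal tubule markers were highest, at 729 CPM against 236 to 326 CPM. Fosb was highest in control replicate 4, at 0.499 CPM against 0 to 0.130 CPM, and so was Batf, at 1.43 CPM against 0.158 to 0.514 CPM. The summed macrophage markers of that control were 160 CPM, against 66.4 to 98.6 CPM in the other controls. Dusp8 was highest in control replicate 5, at 4.35 CPM against 1.31 to 2.12 CPM. The summed dendritic cell markers were highest in control replicate 1, at 68.5 CPM against 21.0 to 23.8 CPM.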

How the results depend on the processing

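All 10 factors kept their direction and their call in the 8 alternative fits and the 10 fits without 1 sample. Over both kinds of fit, the log2 fold change ran from 9.86 to 11.59 for Fosl1, from 3.86 to 4.66 for Fos and from 0.45 to 1.03 for Jund. Of 810 alternative values of 45 results, 802 kept their direction and their side of the threshold, or for counts stayed within 1.5 times. With total-count scaling, 9179 genes were called higher and 2526 lower, the upstream list had 24 genes called higher and the phosphatase list had 0 called lower, and Map2k6 (-0.12) and Dusp9 (-0.52) were not called. The bZIP partners called lower numbered 1 to 2 across the fits without 1 sample, with 2 in the fit without control replicate 4 and in that without puberulic acid replicate 2. The count of genes called ran from 9960 to 12095 over the alternatives and from 10104 to 11108 without 1 sample. Same-numbered samples share only a number, and their deviations correlated at -0.17 to 0.04 over the 5 pairs. Adding the replicate block left 10325 genes called against 10622 without it, and it changed no call of a factor. Depth limits the controls of Fosl1 and Fosb, with 4 and 14 counts in all, so the size of their folds is loosely bounded.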

Other observations

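Among the list genes called higher, the rank of puberulic acid replicate 1 within its group varied by list. It was the lowest of the 5 samples for all 26 other immediate early genes called higher, for 16 of 18 AP-1 target genes, for 8 of 10 bZIP partners and for 5 of 7 phosphatases, but for 5 of 14 upstream genes, where it was the highest for another 5. Over all genes called higher, it was the lowest for 53.6%. Genes of a list are not independent, the same sample enters every rank, and no test was made of these shares. Map3k1, above JNK, was highest in that sample, at 104 CPM against 76.9 to 94.6 CPM in the other 4. For Egr2 it had 7.16 CPM against 10.9 to 22.0 CPM, and for Socs3 28.0 CPM against 48.1 to 63.7 CPM. Dusp1 was at 23.5 CPM there, below the 31.0 to 47.7 CPM of the controls, while the other 4 treated samples were at 38.5 to 58.2 CPM. Both Egr2 and Socs3 were picked here from the named genes, and Map3k1 and Dusp1 after their values were seen.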
